A study of Homo sapiens with 6 samples.

Results

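Glycolysis and hypoxia response genes were examined in H1975, a human lung adenocarcinoma cell line, in WT cells and in cells knocked out for YTHDC2, an RNA helicase that reads the mRNA modification m6A. The members are 41 genes chosen by name out of 16760 in the table: 17 glycolytic enzymes, 6 genes of glucose and lactate transport and of the control of glycolysis, and 18 hypoxia response genes outside glycolysis. RNA was sequenced from H1975 cells of both genotypes, in 3 YTHDC2 knockout and 3 WT libraries. According to the methods of the study, cells were grown in DMEM with serum; neither the oxygen level nor whether the knockout cells were 1 clone or a pool is stated in the sources used here. The figure legends of the study speak of biological replicates, while the labels do not say that the libraries of a genotype came from separate cultures. P-values then measure the spread between these libraries, which may be technical.

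Glycolysis splits glucose into pyruvate, which lactate dehydrogenase can turn into lactate. When oxygen is scarce, the HIF prolyl hydroxylases slow down, HIF-1α escapes degradation, and HIF binds short hypoxia response elements, whose core letters are ACGTG or GCGTG, near genes of glucose uptake, glycolysis, blood vessel growth and adaptation to low oxygen. Lung adenocarcinoma cells often use glycolysis also where oxygen is present.

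Promoter sequence shows how far the members share these core letters. RefSeq start sites gave 250 bases before the start for 35 of the 41 members (build GRCh38.p14); SLC2A3, NDRG1, BNIP3L, VEGFA, HILPDA and FUT11 had no entry. ACGTG, searched on both strands, was in 15 of the 35 windows, and in 22.3% of windows of the same length over 12242 tested genes. GCGTG was in 12 of 35, against 43.4%. CACGTG, the E-box, which holds ACGTG on each strand and so counts there as a pair of matches, was in 6 of 35, against 8.5%. A match is a run of letters and not a measured binding site, and a window without one says nothing about sites farther away. The windows below were chosen to show how many matches differ between genes described in the text: LDHA with 5 matches of ACGTG, ALDOC and ANKRD37 with 3 each, PGK1 with 2, and ALDOA and CA9 with 1 each. They read 5′ to 3′ on the gene's own strand and end at the base before the start site, and capitals mark each match of ACGTG or GCGTG on either strand. GENCODE v29 places the outermost start of all 6 genes within or before these windows, so that the start sites differ between annotations.
LDHA, chr11:18394313-18394562, plus strand: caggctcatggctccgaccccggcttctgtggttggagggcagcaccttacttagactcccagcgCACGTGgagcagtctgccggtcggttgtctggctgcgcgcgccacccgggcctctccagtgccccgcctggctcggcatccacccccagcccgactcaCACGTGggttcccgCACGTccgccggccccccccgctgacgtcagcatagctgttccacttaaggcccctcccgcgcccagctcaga
PGK1, chrX:78103998-78104247, plus strand: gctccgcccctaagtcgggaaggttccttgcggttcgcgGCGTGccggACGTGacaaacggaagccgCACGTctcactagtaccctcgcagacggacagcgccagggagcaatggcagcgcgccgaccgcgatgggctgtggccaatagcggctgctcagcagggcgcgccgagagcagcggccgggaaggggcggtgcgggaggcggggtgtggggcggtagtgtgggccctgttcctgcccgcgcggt
ALDOC, chr17:28576896-28577145, minus strand: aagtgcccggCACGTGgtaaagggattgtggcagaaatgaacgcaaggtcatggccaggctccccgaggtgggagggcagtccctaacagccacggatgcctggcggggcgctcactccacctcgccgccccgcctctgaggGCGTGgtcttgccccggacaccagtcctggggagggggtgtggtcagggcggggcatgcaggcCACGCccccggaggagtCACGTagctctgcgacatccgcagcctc
ALDOA, chr16:30064029-30064278, plus strand: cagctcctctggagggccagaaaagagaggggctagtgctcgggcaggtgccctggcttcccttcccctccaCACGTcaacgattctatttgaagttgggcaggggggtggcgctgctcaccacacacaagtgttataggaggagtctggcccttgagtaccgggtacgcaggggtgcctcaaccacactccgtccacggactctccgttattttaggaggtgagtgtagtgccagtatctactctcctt
ANKRD37, chr4:185396591-185396840, plus strand: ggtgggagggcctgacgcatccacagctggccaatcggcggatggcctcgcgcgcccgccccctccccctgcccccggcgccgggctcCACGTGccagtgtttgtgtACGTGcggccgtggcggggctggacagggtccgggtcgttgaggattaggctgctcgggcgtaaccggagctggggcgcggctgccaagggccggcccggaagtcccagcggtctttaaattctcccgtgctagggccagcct
CA9, chr9:35673678-35673927, plus strand: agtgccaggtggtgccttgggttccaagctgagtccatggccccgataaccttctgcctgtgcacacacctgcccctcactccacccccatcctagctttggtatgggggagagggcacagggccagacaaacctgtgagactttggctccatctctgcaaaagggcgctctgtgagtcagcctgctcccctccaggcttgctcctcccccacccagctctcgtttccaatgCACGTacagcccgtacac
In LDHA, 4 of the 5 matches lie in 2 E-boxes, whose first bases stand 185 and 87 bases before the start. PGK1 holds ACGTG at 202 bases and, on the other strand, at 183 bases before the start. The single match of CA9 stands 18 bases before its start. Of the 15 members with ACGTG in the window, 9 were higher in knockout cells by the test described next, 0 were lower and 6 did not pass, beside 16.4% higher and 29.8% lower of the 2728 tested genes with such a window. Of the 20 members without it, 11 were higher, 3 were lower and 6 did not pass, beside 16.5% higher and 26.6% lower of 9514 tested genes.

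The authors deposited FPKM, in which fragments are divided by gene length and by depth. The values held whole fragments, and library totals were 32323120 to 34027079 in knockout cells and 27363312 to 30515208 in WT cells. Genes with a value above 0 in 3 or more libraries (15441, all 41 members among them) were tested by limma on log2(FPKM + 0.1), and p-values were adjusted over these genes by the Benjamini-Hochberg method. YTHDC2 was at 7.82, 8.92 and 8.14 FPKM in the knockout libraries and at 13.0, 17.1 and 201 FPKM in the WT libraries, so that each knockout library lay below each WT library, the transcript was not absent, and WT replicate 3 stood far apart (limma log2 fold change -2.09 ± 1.17 SE, adjusted p = 0.228). Leaving that library out gave -0.84 for YTHDC2 (limma adjusted p = 0.00223). Of the lung epithelial markers, KRT8 and KRT18, both keratins, were at 90.1 and 67.0 FPKM on average, the lung factor NKX2-1 averaged 1.56, and EPCAM and KRT7 averaged 0.532 and 0.130. Among the 9 lung epithelial markers in the table, 4 averaged below 1 FPKM, and SFTPB and SFTPA1 had no entry. Of 7 markers of blood, vessel and connective tissue cells in the table, 6 averaged below 1 FPKM, and COL1A1 averaged 6.12 FPKM.

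With the values as deposited, most glycolytic enzymes were higher in knockout cells, and the other hypoxia genes moved in both directions. After the GC correction described below, 8 hypoxia genes were called higher and 0 lower. In such bulk libraries, a change in the share of cells that use a gene and a change in its RNA per cell cannot be told apart. At an adjusted p under 0.05, 23 members were higher and 3 were lower, and 15 did not pass. Of all tested genes, 16.6% were higher and 26.2% were lower by the same rule. Among the 17 glycolytic enzymes 14 were higher and 1 was lower, among the 6 transport and control genes 3 were higher, and among the 18 hypoxia genes 6 were higher and 2 were lower. The median log2 fold change was 0.28 for the enzymes, 0.17 for transport and control and 0.08 for the hypoxia genes, beside -0.09 for all tested genes. With the added requirement of an absolute log2 fold change above 1, only ALDOA and NDRG1 passed, both higher, beside 0.732% of all tested genes higher and 1.99% lower. All knockout libraries lay above all WT libraries for 23 members and below them for 5, beside 20.7% and 33.1% of all tested genes. Without WT replicate 3, 20 members were higher and 3 lower, and 13 of the 20 were enzymes. Of the 15441 tested genes, 2288 were then higher and 3296 lower. By GENCODE v29, 28 of the 41 members share exon bases with another annotated gene, 22 of them with a gene on the other strand.

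**Figure D1:**
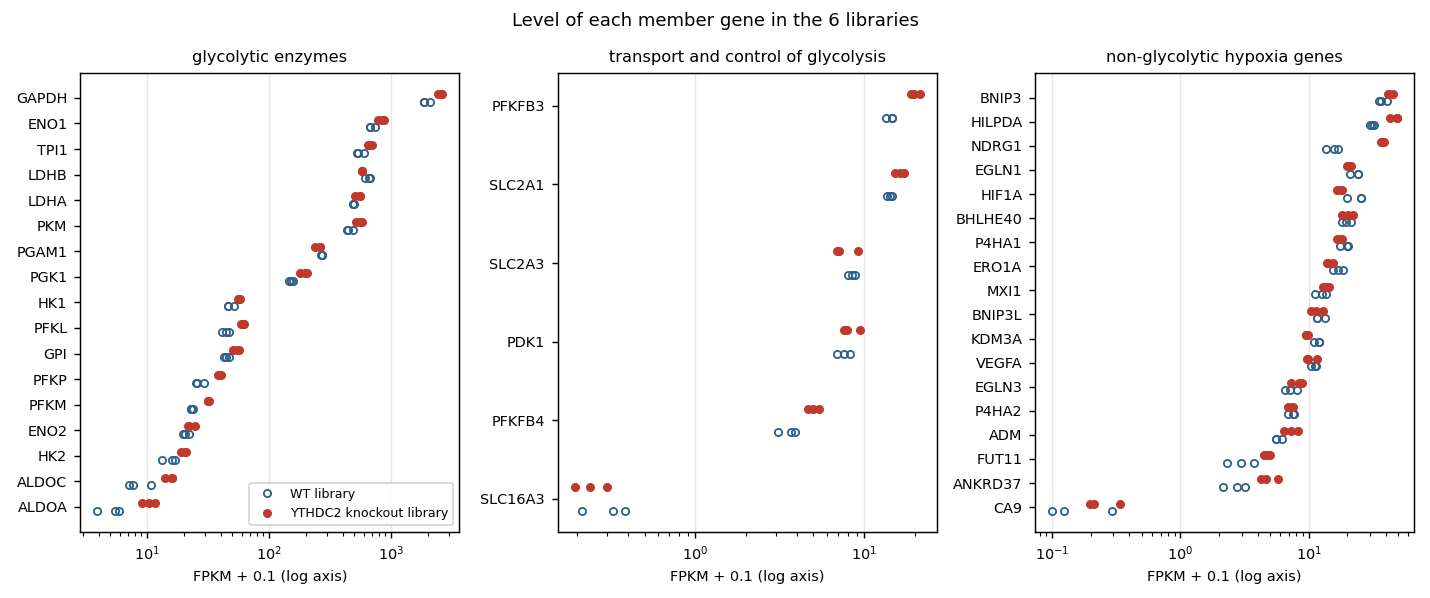
Level of each member gene as FPKM + 0.1 on a log axis, with 1 filled point per YTHDC2 knockout library and 1 open point per WT library, in 3 panels for the member groups. The enzymes ranged from ALDOA, at 3.81 to 11.6 FPKM, to GAPDH, at 1855.0 to 2625.4 FPKM, and the knockout points of most enzymes lie to the right of the WT points.

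Fold changes also followed base composition. When tested genes were ordered by GC content and divided into 10 bins, the median log2 fold change was -0.35 in the bin with the lowest content and 0.25 in the bin with the highest. The enzymes had a median GC content of 53.1%, the hypoxia genes 49.2% and all tested genes 49.2%. After each library was corrected for its own trend on GC content, 26 members were higher and 0 were lower, beside 21.1% and 16.2% of 15326 genes. The enzymes then gave 14 higher and 0 lower with a median of 0.29, and the hypoxia genes 8 higher and 0 lower with a median of 0.25; the median of all genes moved to 0.03. With libraries scaled to a common median, 26 members were higher and 1 was lower, beside 23.5% and 16.3% of all tested genes. Of the members called lower, HIF1A stayed so with median scaling and none did with GC correction. Whether GC content reflects library preparation or the cells was not tested.

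**Figure D2:**
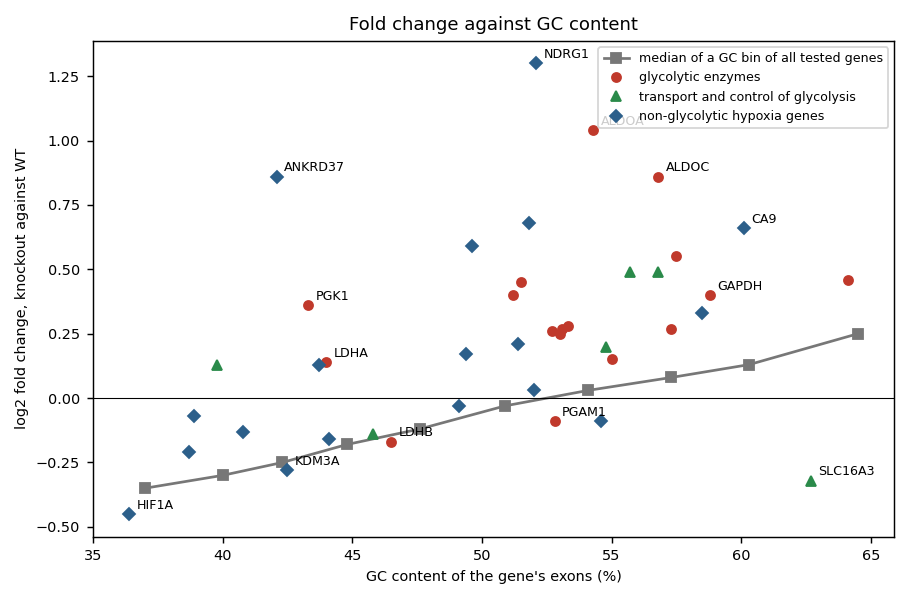
Log2 fold change of the members, knockout against WT, against the GC content of their longest transcripts in percent, with the medians of 10 bins of all tested genes as a grey line. The line climbs from -0.35 to 0.25, LDHB, KDM3A and HIF1A lie near it, and NDRG1, ALDOA and ANKRD37 lie well above it.

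Glycolysis opens with phosphorylation of glucose by hexokinase, and both hexokinases of the list were higher. HK1, the housekeeping form, was at 56.0, 56.4 and 58.2 FPKM in knockout libraries and at 51.4, 46.0 and 46.2 FPKM in WT libraries. HK2, the form induced in many tumours, was at 20.8, 18.9 and 20.3 FPKM against 13.2, 16.7 and 15.8 FPKM. Neither gene overlapped between genotypes, with log2 fold changes of 0.25 for HK1 and 0.40 for HK2 (limma adjusted p = 0.00622 and 0.00685). GPI, which turns glucose 6-phosphate into fructose 6-phosphate, was 20.9% higher in the mean of the knockout libraries (limma log2 fold change 0.27 ± 0.06 SE, adjusted p = 0.00571).

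Phosphofructokinase, the committing step, is built from 3 related subunits, all of which rose. PFKP, the platelet type, was at 39.2, 37.7 and 40.1 FPKM in knockout libraries and at 29, 25.2 and 25.8 FPKM in WT libraries (limma log2 fold change 0.55 ± 0.06 SE, adjusted p = 0.000271). PFKL, the liver type, was at 61.7, 59.3 and 60.8 FPKM against 46.8, 41.0 and 44.4 FPKM (limma log2 fold change 0.46 ± 0.06 SE, adjusted p = 0.000365). PFKM, the muscle type, was at 31.4, 32.1 and 31.3 FPKM against 23.7, 22.9 and 22.6 FPKM (limma log2 fold change 0.45 ± 0.05 SE, adjusted p = 0.000193). The 3 subunits lay apart between genotypes by more than the spread in either. After GC correction PFKL, whose longest transcript is 64.1% GC, kept a log2 fold change of 0.24, and PFKM and PFKP kept 0.51 and 0.48. PFKM shares its span with SENP1 on the other strand, and the strand setting of the counting is not known here.

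Aldolase cleaves fructose 1,6-bisphosphate, and its genes showed the largest fold changes among the enzymes. ALDOA, the ubiquitous form (GRCh38 chr16:30064164-30070457), was at 10.2, 8.93 and 11.6 FPKM in knockout libraries and at 5.35, 3.81 and 5.76 FPKM in WT libraries. Its mean rose by 106%, which limma gave as 1.04 ± 0.15 SE on the log2 scale (adjusted p = 0.000872), and it was 1.03 after GC correction. ALDOC, the form of brain, was at 15.8, 14.0 and 15.8 FPKM against 10.7, 7.01 and 7.64 FPKM (limma log2 fold change 0.86 ± 0.14 SE, adjusted p = 0.00152). The level of ALDOA needs care: it rests on 251 to 811 fragments per library, below ALDOC and far below TPI1, which follows it in the pathway, at 529.1 to 695.2 FPKM. The protein-coding gene LOC112694756 overlaps its span and was at 0.828 to 1.36 FPKM, and whether fragments shared by both genes were dropped in counting was not tested. Without WT replicate 2, its lowest library, the log2 fold change of ALDOA was 0.86, and without knockout replicate 3, its highest, 0.95.

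The members below aldolase had smaller fold changes than the aldolases, at levels from those of ENO2 to those of GAPDH. GAPDH, which makes 1,3-bisphosphoglycerate and is often used as a reference gene, was at 2544.8, 2433.9 and 2625.4 FPKM in knockout libraries and at 2070.1, 1855.0 and 1859.4 FPKM in WT libraries. The genotypes did not overlap, and the knockout mean was 31.5% higher (limma log2 fold change 0.40 ± 0.05 SE, adjusted p = 0.000462, and 0.30 after GC correction). TPI1, PGK1, ENO1 and PKM, which run from triose phosphate isomerase to pyruvate kinase, were higher with log2 fold changes from 0.26 for ENO1 to 0.36 for PGK1. PGAM1, the mutase between PGK1 and enolase, stood apart from its neighbours: at 262.1, 235.8 and 262.0 FPKM in knockout libraries and at 271.0, 266.1 and 269.1 FPKM in WT libraries it differed by -0.09 on the log2 scale (limma adjusted p = 0.189), and after GC correction -0.06. ENO2, the neuronal enolase, was at 21.6 to 24.7 FPKM against 19.5 to 21.8 FPKM and did not pass (limma log2 fold change 0.15, adjusted p = 0.124). Many of these genes have annotated pseudogenes, 62 named for GAPDH and 13 for PGAM1, so that their fragments can be split between near-identical copies.

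Lactate dehydrogenase is a tetramer of LDHA, which favours lactate production, and LDHB, and its genes went opposite ways. LDHA was at 558.2, 509.0 and 558.0 FPKM in knockout libraries and at 486.3, 490.1 and 495.0 FPKM in WT libraries (limma log2 fold change 0.14 ± 0.05 SE, adjusted p = 0.0317). LDHB was at 575.9, 576.0 and 575.8 FPKM against 616.0, 666.2 and 659.7 FPKM (limma log2 fold change -0.17 ± 0.04 SE, adjusted p = 0.0102). Both calls are small and move with the scaling: after GC correction LDHA was 0.38 (limma adjusted p = 0.00144) and LDHB 0.00 (limma adjusted p = 0.946), and with FPKM set to a common total LDHA was 0.08 (limma adjusted p = 0.157). A factor common to a whole library cancels in the ratio of the pair. The share of LDHA in the summed FPKM of LDHA and LDHB was 49.2%, 46.9% and 49.2% in knockout libraries and 44.1%, 42.4% and 42.9% in WT libraries. The share was 5.33 percentage points higher in knockout cells, with no overlap (p = 0.1 by an exact two-sided permutation test, which can give no smaller p with 3 libraries a group).

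Paralog shares of the other families moved less or overlapped. Of the 10 families, all the knockout libraries lay apart from all the WT libraries for LDHA, for BNIP3 beside BNIP3L (78.9% ± 2.53 against 75.6% ± 0.364, SD, n = 3 each) and for PFKP, by a narrow margin, among the phosphofructokinases (29.7% ± 0.58 against 28.4% ± 0.706, SD, n = 3 each), each with an exact permutation p of 0.1. The share of ALDOA was 39.2%, 39.0% and 42.4% in knockout libraries and 33.2%, 35.2% and 43.0% in WT libraries, so the aldolases overlapped (exact permutation p = 0.5). For HK1, PFKM, ENO1, P4HA1 and PFKFB3 the exact permutation p lay between 0.4 and 0.9, and for PFKL, SLC2A1 and EGLN1 it was 0.2. Over the 12 distinct shares compared, the smallest Benjamini-Hochberg adjusted p of these permutation tests was 0.4. The shares were not corrected for GC content. After GC correction the log2 fold changes were 0.26 for BNIP3 and 0.28 for BNIP3L, against 0.21 and -0.07 before. PFKP and PFKM were then at 0.48 and 0.51, against 0.55 and 0.45 before. LDHA and LDHB were at 0.38 and 0.00 after it.

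**Figure D3:**
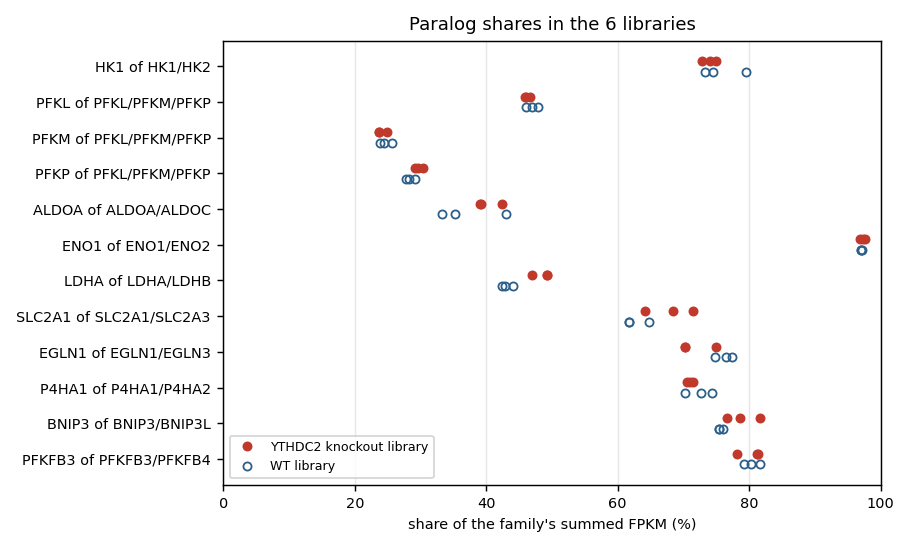
Share of each named gene in the summed FPKM of its paralog family, in percent, with 1 filled point per knockout library and 1 open point per WT library. The LDHA points of knockout libraries lie between 46.9% and 49.2%, and those of WT libraries between 42.4% and 44.1%.

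Summed over all 17 enzymes, the level was 6519.3, 6179.9 and 6675.2 FPKM in knockout libraries and 5670.4, 5296.9 and 5294.2 FPKM in WT libraries, 1.19 times higher in the mean and without overlap (exact two-sided permutation test, p = 0.1). GAPDH gave the largest part. Without it the sum was 3923.5 ± 158.2 FPKM in knockout libraries and 3492.3 ± 93.6 FPKM in WT libraries (SD, n = 3 each), 1.12 times higher. As a share of all FPKM of a library the 17 enzymes took 1.55% ± 0.0494 against 1.36% ± 0.0243 (SD, n = 3 each).

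Among the genes that feed and steer glycolysis, the bifunctional enzymes that set fructose 2,6-bisphosphate rose most. PFKFB3, which favours its synthesis, was at 21.2, 19.6 and 18.9 FPKM in knockout libraries and at 14.6, 13.3 and 14.5 FPKM in WT libraries (limma log2 fold change 0.49 ± 0.07 SE, adjusted p = 0.000597). PFKFB4 was at 4.88, 4.54 and 5.26 FPKM against 3.59, 2.97 and 3.81 FPKM (limma log2 fold change 0.49 ± 0.11 SE, adjusted p = 0.00726). Both pairs of groups were separate, and both genes kept 0.46 and 0.44 after GC correction. SLC2A1, the glucose transporter GLUT1, was at 16.2, 15.2 and 17.1 FPKM against 14.1, 14.5 and 13.5 FPKM, a small rise near the threshold (limma log2 fold change 0.20 ± 0.06 SE, adjusted p = 0.0309, and 0.0905 without WT replicate 3). SLC2A3, the transporter GLUT3, had a log2 fold change of -0.14 and PDK1, a pyruvate dehydrogenase kinase, 0.13. Neither passed (limma adjusted p = 0.360 and 0.345). PDK1, with a longest transcript of 39.8% GC, reached 0.47 after GC correction (limma adjusted p = 0.00577). SLC16A3, the lactate exporter MCT4, was near 0 in all libraries, at 0.0930 to 0.283 FPKM.

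**Figure D4:**
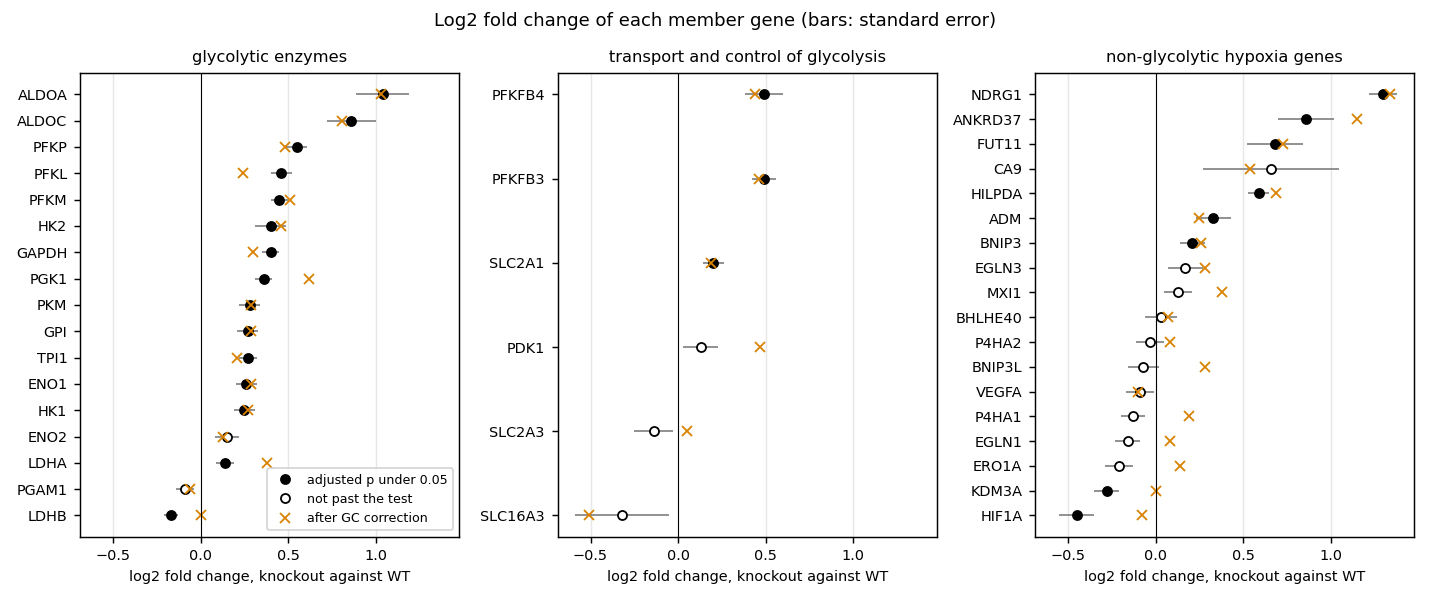
Log2 fold change of each member, knockout against WT, with its standard error as a bar; filled points pass an adjusted p of 0.05, open points do not, and crosses give the value after GC correction. Nearly all enzymes lie to the right of 0, and the hypoxia genes spread from HIF1A at -0.45 to NDRG1 at 1.30.

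Among the hypoxia genes outside glycolysis, NDRG1 changed most. NDRG1 (GRCh38 chr8:133237171-133302022), a stress-responsive gene that hypoxia and HIF induce, was at 38.6, 37.6 and 36.9 FPKM in knockout libraries and at 16.9, 13.5 and 15.7 FPKM in WT libraries. Its lowest knockout library was thus far above its highest WT library, and the mean was 146% higher (limma log2 fold change 1.30 ± 0.08 SE, adjusted p = 1.9e-05). The log2 fold change was 1.34 after GC correction and lay between 1.21 and 1.37 with any 1 library left out.

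ANKRD37, an ankyrin repeat protein gene induced by HIF, was at 5.63, 4.52 and 4.12 FPKM in knockout libraries and at 2.64, 3.08 and 2.04 FPKM in WT libraries (limma log2 fold change 0.86 ± 0.16 SE, adjusted p = 0.00297). FUT11, a fucosyltransferase gene, was at 4.4, 4.91 and 4.63 FPKM against 2.22, 2.85 and 3.67 FPKM (limma log2 fold change 0.68 ± 0.16 SE, adjusted p = 0.00829). HILPDA, whose product sits on lipid droplets and restrains lipolysis, was at 48.8, 42.9 and 49.0 FPKM against 32.0, 30.1 and 31.2 FPKM (limma log2 fold change 0.59 ± 0.06 SE, adjusted p = 0.00018). All 3 genes separated the genotypes, with the lowest depth for ANKRD37, at 44 to 151 fragments per library. ANKRD37 lies in the table beside UFSP2 and LRP2BP, whose spans it overlaps. The mitophagy receptor gene BNIP3 and ADM, which encodes the vasodilator adrenomedullin, passed more narrowly, with log2 fold changes of 0.21 and 0.33 (limma adjusted p = 0.0339 and 0.026). Without WT replicate 3, ADM had an adjusted p of 0.074 by limma, and after GC correction 0.0677. BNIP3 has 39 named pseudogenes in GENCODE v29.

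HIF1A and KDM3A were the hypoxia genes called lower. HIF1A, which encodes the HIF-1α subunit and is controlled mainly through protein stability, was at 17, 18.2 and 16.6 FPKM in knockout libraries and at 19.9, 25.7 and 25.7 FPKM in WT libraries (limma log2 fold change -0.45 ± 0.10 SE, adjusted p = 0.00588). KDM3A, a histone demethylase gene induced by HIF, was at 9.51, 9.41 and 9.72 FPKM against 10.9, 12.0 and 12.0 FPKM (limma log2 fold change -0.28 ± 0.07 SE, adjusted p = 0.00821). For both genes the libraries of the genotypes were apart, with WT replicate 1 nearest to the knockout libraries. Their longest transcripts are AT-rich, at 36.4% and 42.5% GC. After GC correction HIF1A was at -0.08 (limma adjusted p = 0.256) and KDM3A at 0.00 (limma adjusted p = 0.970).

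VEGFA, CA9, EGLN1 and EGLN3 were to be described whatever their values, and none of these 4 passed the test. VEGFA, the vascular growth factor, was at 11.5, 9.69 and 9.83 FPKM in knockout libraries and at 11.4, 10.3 and 11.1 FPKM in WT libraries, with overlapping groups (limma log2 fold change -0.09 ± 0.08 SE, adjusted p = 0.446). CA9, the surface carbonic anhydrase used as a hypoxia marker, was near the detection limit, with 6, 5 and 12 fragments in knockout libraries and 9, 0 and 1 in WT libraries, and its call turned on 1 library. The log2 fold change of CA9 was 0.66 ± 0.39 SE (limma adjusted p = 0.208), and without WT replicate 1, which held 9 of the 10 WT fragments, it was 1.13 (limma adjusted p = 0.0116). The prolyl hydroxylase genes EGLN1 and EGLN3, which act in the feedback on HIF, pointed opposite ways without passing. EGLN1 was at 20.7, 21.5 and 19.8 FPKM against 21.1, 24.0 and 24.0 FPKM (limma log2 fold change -0.16, adjusted p = 0.0907), and EGLN3 at 8.72, 7.19 and 8.39 FPKM against 6.50, 8.07 and 7.0 FPKM (limma log2 fold change 0.17, adjusted p = 0.223). The collagen prolyl hydroxylase genes P4HA1 and P4HA2, the oxidase gene ERO1A, the repressors BHLHE40 and MXI1 and the mitophagy receptor BNIP3L had log2 fold changes between -0.21 and 0.13. Of these, ERO1A missed the threshold narrowly, with 14.2, 15.3 and 13.9 FPKM in knockout libraries and 15.3, 16.8 and 18.3 FPKM in WT libraries (limma log2 fold change -0.21 ± 0.08 SE, adjusted p = 0.0518). It was called lower in 6 of 17 alternatives, among them without WT replicate 1 (-0.28, limma adjusted p = 0.0112), and had a positive log2 fold change of 0.14 after GC correction (limma adjusted p = 0.0775). MXI1, BNIP3L and P4HA1 passed as higher after GC correction, at 0.38, 0.28 and 0.19.

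Lists of neighbouring pathways, which hold no member, were described in the same way. Their counts stand beside 16.6% of all tested genes higher and 26.2% lower. In the pentose phosphate pathway, which branches from glucose 6-phosphate, 5 of 7 genes were higher and 0 were lower, with a median log2 fold change of 0.29. The transketolase gene TKT differed by 0.46 on the log2 scale (limma adjusted p = 0.000359). Of 31 tested other enzymes and transporters of glucose and pyruvate, 5 were higher and 9 were lower, near the shares of all tested genes. TIGAR, a phosphatase gene whose product lowers fructose 2,6-bisphosphate, was at 3.14, 2.79 and 2.89 FPKM against 6.03, 6.65 and 6.33 FPKM and fell (limma log2 fold change -1.08 ± 0.09 SE, adjusted p = 6.32e-05, and -0.85 after GC correction). All its knockout libraries lay below all its WT libraries. PCK2, of the same list, was at 34.3, 39.2 and 35.2 FPKM against 19.7, 16.7 and 17.9 FPKM. It was called higher (limma log2 fold change 1.0 ± 0.08 SE, adjusted p = 4.78e-05) but did not exceed the fold change threshold. After GC correction PCK2 was at 0.83. In the tricarboxylic acid cycle 4 of 13 genes were higher and 3 were lower, with IDH3G and MDH2 both at a log2 fold change of 0.38. GC correction changed these counts. The other glucose and pyruvate list then gave 11 higher and 5 lower, and the tricarboxylic acid cycle 6 higher and 0 lower. The pentose phosphate pathway gave 4 higher and 0 lower, beside 21.1% and 16.2% of all genes so corrected.

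In the oxygen-sensing machinery 2 of 13 genes were higher and 6 were lower, beside 16.6% and 26.2% of all tested genes. ARNT2, a partner of HIF subunits, was at 4.85, 5.27 and 4.15 FPKM in knockout libraries and at 10.2, 9.67 and 9.46 FPKM in WT libraries (limma log2 fold change -1.03 ± 0.10 SE, adjusted p = 0.000107). After GC correction the list gave 2 higher and 4 lower, beside 21.1% and 16.2% of all genes so corrected. Of 26 tested further hypoxia-induced genes 10 were higher and 6 were lower, beside the same 16.6% and 26.2%, with a median log2 fold change of 0.05. With GC correction 13 were higher and 2 were lower, with a median of 0.23. DDIT4, which encodes the mTORC1 inhibitor REDD1, was at 301.3, 266.4 and 289.7 FPKM against 102.3, 96.5 and 108.1 FPKM (limma log2 fold change 1.48 ± 0.06 SE, adjusted p = 5.05e-06), a larger fold change than that of any member.

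**Figure D5:**
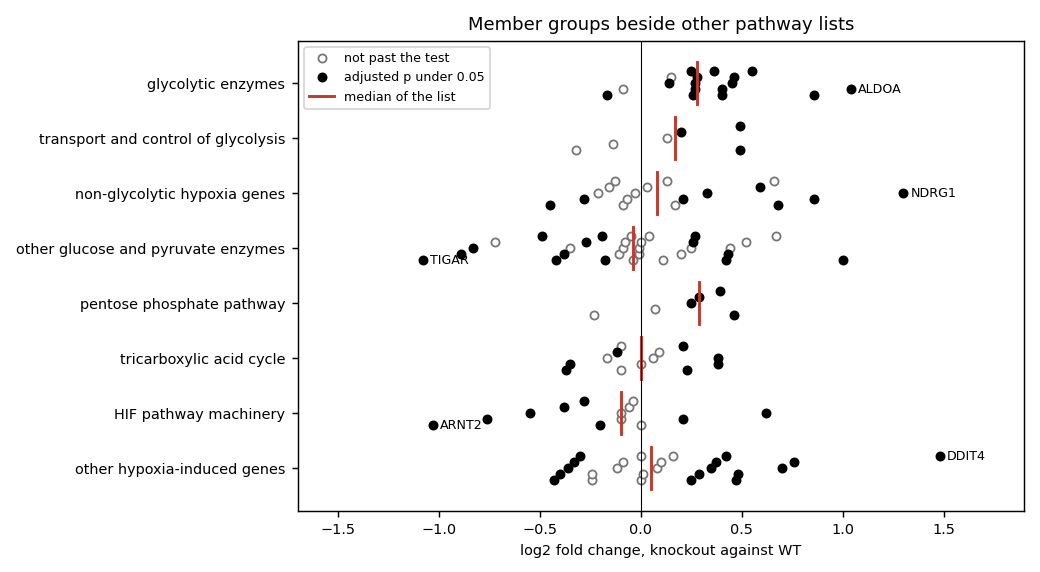
Log2 fold change, knockout against WT, of the tested genes reported here in the 3 member groups and in 5 other pathway lists; filled points pass an adjusted p of 0.05, red lines are medians over all tested genes of a list, and plotted genes past both thresholds are named. The medians of the glycolytic enzymes (0.28) and of the pentose phosphate pathway (0.29) lie to the right of 0, and that of the HIF machinery (-0.10) to the left.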

How the data were processed

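RNA-seq of H1975 cells was analysed for 3 YTHDC2 knockout and 3 WT libraries, grouped by the genotype in their labels. The authors deposited 1 table of FPKM for 16760 genes, made with the genome build GRCh38.p13 according to the submitters' processing notes; the aligner, counting program, annotation, strand setting and filters are not stated in the sources used here. In each library, low values are whole multiples of the worth of 1 fragment, and whole fragments and gene lengths were recovered for 16760 genes within 0.02 of a whole number. FPKM carry a scaling by depth and length, so that a shift of abundant genes moves all others.

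The test was limma 3.58.1 (R 4.3.3), trended and robust, for genes with a value above 0 in 3 or more libraries (15441). It used log2(FPKM + 0.1), which understates the changes of genes near 0.1 FPKM. Calls used an adjusted p under 0.05, alone or with an absolute log2 fold change above 1. Paralog shares and sums were compared with exact two-sided permutation tests. The scripts were tested on simulated data. GC content was that of the longest GENCODE v29 transcript of a gene, found for 99.1% of genes, and was corrected per library with a lowess curve. Alternatives were other pseudocounts, filters and scalings, plain moderation, limma voom on the recovered fragments, a replicate block, and leaving out each library.

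The members and lists were chosen with earlier results of these data known. Genes are named where they pass both thresholds, are among the 5 largest changes of a member group, fell, or belong to a fixed set (GAPDH, HIF1A, VEGFA, CA9, EGLN1, EGLN3); of other lists, genes past both thresholds or else the 2 with the smallest adjusted p. HK1, HK2, GPI, PGAM1, ENO2, LDHA, SLC2A3, SLC16A3, PDK1, BNIP3, ADM, ERO1A and the members given by range were added after their values were seen, to account for all members. Values of some genes within this rule are not reported here. Other experiments of the study were not analysed here.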

Additional observations from a re-analysis of the deposited data

How the results depend on the processing

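Under all 17 alternatives, 19 of the 26 members called at an adjusted p kept direction and call, NDRG1, HILPDA, FUT11, ANKRD37, GAPDH and the phosphofructokinases among them; LDHA, LDHB, SLC2A1, BNIP3, ADM, KDM3A and HIF1A lost the call in some. Members called lower (3) were 0 with GC correction, 6 with a common FPKM total, 1 with median scaling and 3 to 6 with a library left out, 6 without WT replicate 1, where EGLN1, P4HA1 and ERO1A joined. Members past both thresholds (2) were 1 with a common FPKM total or a pseudocount of 1 and 1 to 4 with a library left out, 4 without WT replicate 1, where ALDOC and CA9 joined ALDOA and NDRG1, and 1 without WT replicate 2 or knockout replicate 3. After GC correction LDHB was at 0.00, BNIP3L at 0.28 and P4HA1 at 0.19, against negative values as reported. ANKRD37 then joined ALDOA and NDRG1 past both thresholds, 3 members in all. Of the 15 members not past the test, 5 stayed so in every alternative that tested them. PGAM1 was called lower with a common FPKM total (limma adjusted p = 0.0193). ENO2 and EGLN3 were called higher with median scaling (limma adjusted p = 0.0208 and 0.0465). Of all genes, those lower (4044) were 2487 with GC correction and 2515 with median scaling. Those past both thresholds were 209 higher with median scaling, 184 with a pseudocount of 0.01 and 29 with 1, against 113, and 483 lower with voom, 126 at a mean of at least 1 FPKM, 505 with a pseudocount of 0.01 and 69 with 1, against 307. With a library left out, the share difference changed sign for HK1 (-3.08 to 0.051 points, positive without WT replicate 1), PFKM (-0.937 to 0.0116, positive without WT replicate 2) and PFKFB3 (-0.748 to 0.848, positive without knockout replicate 3 or WT replicate 2).

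Deviations from the genotype mean in libraries of the same replicate number had correlations of 0.212, 0.125 and -0.058 over 11121 genes. Libraries of different numbers were not compared, so whether the numbers pair the libraries is not settled. With a replicate block 23 members were higher and 4 lower, beside 2638 and 4228 of all genes. With the block and GC correction 25 members were higher and 0 lower, beside 3047 and 2346 of all genes. The causes of these changes were not tested. CA9 rests on 0 to 12 fragments per library. The values do not separate paralog or pseudogene fragments.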
